A study of Mus musculus with 6 samples.

Results

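Megalin (Lrp2) and cubilin (Cubn) form an endocytic receptor complex, and its genes were followed in nephron progenitor cells sorted from fetal mouse kidneys after a control or a food-restricted pregnancy. The 5 genes were taken by symbol: the receptors Lrp2 and Cubn, the cubilin partner amnionless (Amn), the cytoplasmic adaptor Dab2 and the receptor chaperone Lrpap1. All 5 were found among the 52386 genes of the deposited table and all 5 have normalized counts, as do 25157 genes in all. The embryos came from CD-1 females mated with males carrying a Six2 Cre transgene, and the labels give CD-1/ Six2 Cre tg/+ for every library of both diets. The females were allotted at random to control feed or to restricted feed from the plug onward, which the sample labels give as 30% of the daily calories and the series text as 70%, a difference the sources used here do not settle. At E18.5, late in gestation, kidney cells were dissociated, sorted for GFP and sequenced as 3 control and 3 food-restricted libraries of total RNA. Six2 drives the transgene in the cells that found the nephron, so the sort rests on where that transgene was active. The 3 libraries per diet are called biological replicates, but which litters or how many embryos went into each is not stated, and the p-values therefore reflect library-to-library spread alone.

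In the mature kidney, megalin and cubilin sit on the apical membrane of the proximal tubule and take up filtered proteins, vitamins bound to their carriers, hormones and lipoproteins. Megalin is a very large transmembrane receptor of the LDL receptor family, whereas cubilin has no transmembrane segment and is held at the membrane by amnionless. Dab2 binds the tail of megalin and links it to the clathrin coat, and Lrpap1, the receptor-associated protein, escorts receptors of the LDL receptor family through the endoplasmic reticulum. Cargo is released in acidified endosomes and the receptors return to the surface.

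The transcripts of both receptors were lower after food restriction, Lrp2 at 55.9% and Cubn at 59.0% of the control level, while Amn, Dab2 and Lrpap1 did not pass the test. A gene was called when its adjusted p in limma, fitted on log2(normalized count + 1) over all 25157 genes, was under 0.05. On that rule 2 of the 5 genes were called lower, against 2.5% of all genes tested, and none was called higher, against 2.24% of all genes. Among the 10060 genes with a mean normalized count of at least 100, which 4 of the 5 pass, 5.37% were called lower and 4.59% higher. No gene of the complex was higher at an unadjusted p under 0.05 either, and limma-voom on the deposited counts also called 2 lower and 0 higher. The median log2 fold change of the 5 genes was -0.32, beside -0.0028 over all genes tested. In such bulk libraries, fewer cells of a type and less RNA per cell cannot be told apart.

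Lrp2 lies on the minus strand of chromosome 2, from 69424340 to 69586065 in GRCm38, and Cubn lies on the same strand of the same chromosome, from 13276338 to 13491813. The 300 bases around their start sites, 250 before and 50 after, are shown because these are the genes of the complex that moved together. They come from RefSeq on GRCm38.p6, as chr2:69585980-69586279 for Lrp2 and chr2:13491827-13492126 for Cubn, both 5′ to 3′ on the minus strand, with matches of the GC box GGGCGG in capitals, which of this pair only the Lrp2 window has.
Lrp2: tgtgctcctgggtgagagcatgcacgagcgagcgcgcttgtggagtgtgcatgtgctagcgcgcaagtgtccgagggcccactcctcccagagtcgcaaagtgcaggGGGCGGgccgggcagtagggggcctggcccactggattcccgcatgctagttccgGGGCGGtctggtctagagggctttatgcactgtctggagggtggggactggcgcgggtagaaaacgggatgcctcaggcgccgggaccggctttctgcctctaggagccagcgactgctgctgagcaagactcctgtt
Cubn: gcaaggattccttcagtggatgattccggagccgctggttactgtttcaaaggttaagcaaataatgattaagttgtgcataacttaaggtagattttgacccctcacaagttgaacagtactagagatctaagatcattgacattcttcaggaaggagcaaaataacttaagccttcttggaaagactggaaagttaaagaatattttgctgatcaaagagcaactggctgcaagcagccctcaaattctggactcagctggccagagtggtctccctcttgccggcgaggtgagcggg
The Cubn window lies wholly upstream of the gene coordinates given above, because the RefSeq start differs from the gene end given there. The window of Lrp2 is 65.0% G and C with 20 CG dinucleotides, and that of Cubn is 44.3% with 5. The median of all 32851 RefSeq windows is 52.7% with 7. Searched on both strands, GGGCGG occurs 2 times in the Lrp2 window and not in that of Cubn, and 35.7% of all windows hold it. Neither window holds the HNF4 motif CAAAGTCCA, found in 0.475% of all windows, or TATAAA, found in 13.6%. The Amn window (62.3% G and C) has 1 GC box and the Lrpap1 window (61.3%) has 5. Of the pair of Dab2 windows, at different starts of the gene, one is 37.7% and the other 59.3% G and C, and neither holds a GC box. These letter matches are descriptions of the windows and the libraries do not bear on whether any of them is used.

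Lrp2 had normalized counts, which are read counts divided by the authors' size factor for the library, of 3896, 4188 and 4050 in control replicates 1 to 3. In food-restricted replicates 1 to 3 it had 2248, 2280 and 2248. All 3 food-restricted libraries were below all 3 controls, and they lay closer to one another than the controls did. The means were 4045 ± 146 (SD, n = 3) and 2259 ± 18.4 (SD, n = 3). The log2 fold change, food-restricted over control, was -0.84 with a standard error of 0.046 and a 95% interval of -0.93 to -0.75 (limma, adjusted p = 6.36e-23). On a linear scale the interval runs from 52.4% to 59.6% of control. Only 2 of all genes tested had a smaller adjusted p, and 19 of the 10060 genes with a mean of at least 100 had a log2 fold change as low as that of Lrp2 or lower, Lrp2 itself included. Between 1277 and 4225 reads per library lie behind these values, so that counting alone gives an SD of 1.54% to 2.80%. The SD of 18.4 among the food-restricted libraries is smaller than counting alone would give. Their closeness is therefore no measure of low biological spread.

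Cubn had normalized counts of 431, 497 and 479 with control feed and of 273, 259 and 296 with restricted feed. The groups did not overlap here either. The mean was 469 ± 34.3 (SD, n = 3) in controls and 276 ± 18.46 (SD, n = 3) after restriction. Its log2 fold change was -0.76 with a standard error of 0.097 and a 95% interval of -0.96 to -0.57 (limma, adjusted p = 4.12e-08), or 51.5% to 67.4% of control. Among the 10060 better expressed genes, 29 had a log2 fold change as low as that of Cubn or lower. A transcript on the opposite strand, Gm13270, shares exonic bases with Cubn in the GENCODE annotation, and whether the counting used strand is not stated in the sources. Gm13270 had only 6 to 22 reads per library, at 13.9 ± 1.85 normalized counts (SD, n = 3) in controls and 12.02 ± 2.101 (SD, n = 3) after restriction.

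Amn, the gene of the protein that anchors cubilin, had the fewest reads of the complex. It lies on the plus strand of chromosome 12, from 111271095 to 111276426. Its normalized counts were 35.0, 25.7 and 37.5 with control feed and 38.7, 22.1 and 19.7 with restricted feed. The groups overlapped, and the highest and the lowest of the 6 values were both food-restricted. The means were 32.8 ± 6.24 and 26.8 ± 10.4 (SD, n = 3 each), and the log2 fold change was -0.32 with a 95% interval of -0.95 to 0.31 (limma, adjusted p = 0.701). With 22 to 38 reads per library the counting SD is 16.2% to 21.3%, and the exact Poisson 95% interval of the 22 reads in food-restricted replicate 1 runs from 13.8 to 33.3. The interval of the Amn change, 51.6% to 124% of control, holds both no change and the falls measured for Lrp2 and Cubn. These values therefore exclude neither.

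Dab2, the adaptor, lies on the plus strand of chromosome 15, from 6299788 to 6440712. It had normalized counts of 528, 519 and 510 in the controls and of 526, 430 and 473 after restriction. Food-restricted replicate 1 fell within the control range and the other two lay below it. The means were 519 ± 8.996 and 477 ± 48.3 (SD, n = 3 each), with a log2 fold change of -0.13 and a 95% interval of -0.30 to 0.04 (limma, adjusted p = 0.519). The interval corresponds to 81.2% to 103% of control and does not reach the values of Lrp2 or Cubn. The pseudogene Gm18888 shares exonic bases with Dab2 on the opposite strand and is not among the genes analysed here. The antisense gene Gm16311 overlaps Dab2 without sharing exonic bases and had 0 reads in every library.

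Lrpap1, the chaperone, lies on the minus strand of chromosome 5, from 35091501 to 35105766. Its normalized counts were 728, 657 and 663 in the controls and 599, 627 and 624 after restriction. All 3 food-restricted values lay below all 3 controls, but by little. The means were 683 ± 39.6 and 616 ± 15.4 (SD, n = 3 each), and the log2 fold change of -0.15, with a standard error of 0.077, did not pass the test (limma, adjusted p = 0.351). Its 95% interval runs from 81.3% to 100.4% of control. With Lrp2 and Cubn, 3 of the 5 genes had groups apart in this direction, against 10.2% of all genes tested.

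**Figure D1:**
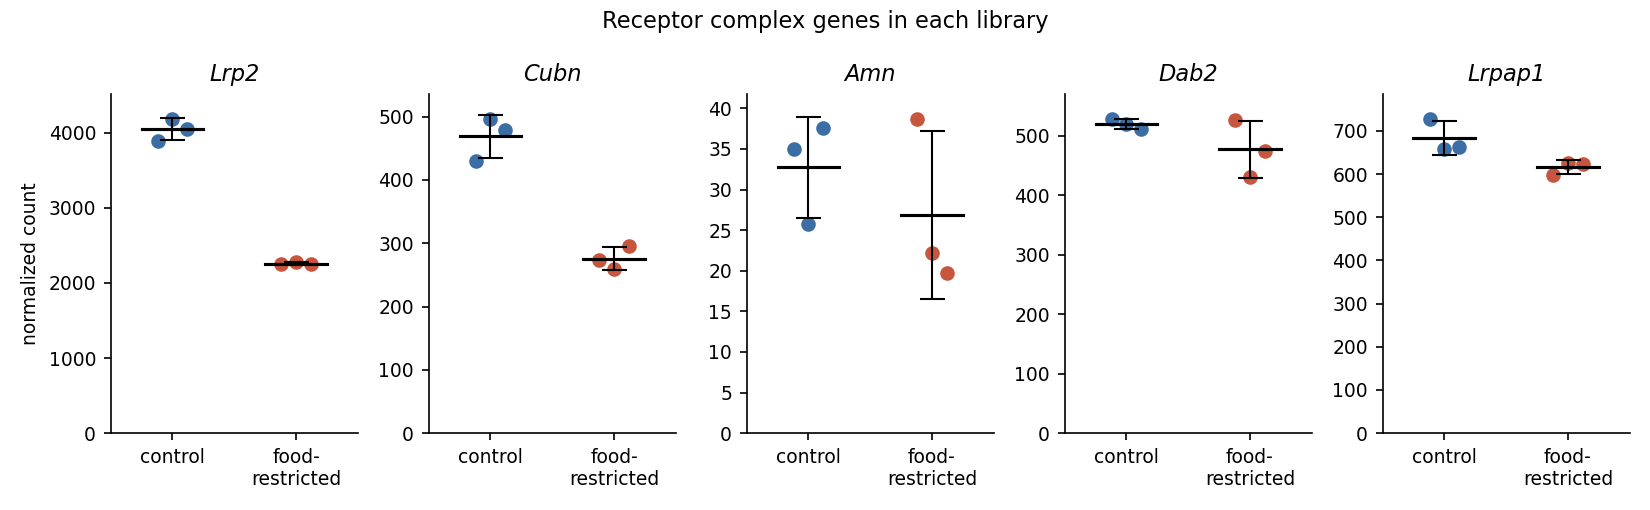
Normalized count of each gene in each library, by diet, with its own axis from 0 for every gene; points are libraries, bars are means and whiskers 1 SD (n = 3). Lrp2 and Cubn separate widely, from 4045 to 2259 and from 469 to 276, Lrpap1 separates narrowly, and Amn and Dab2 overlap.

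The authors' deposited table gives its own DESeq2 comparison of the same libraries. In the authors' deposited table the log2 fold change of Lrp2 is -0.84 with an adjusted p of 7.45e-72. For Cubn the authors' deposited table has -0.76 with an adjusted p of 1.11e-08. In the authors' deposited table Amn stands at -0.36 with an adjusted p of 0.876, Dab2 at -0.14 with 0.710 and Lrpap1 at -0.15 with 0.554. The 2 receptors are under 0.05 and the other 3 genes are not, as in the limma fit.

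Levels of different genes were compared as normalized count per kb of exon, since Lrp2 (16.7 kb) and Cubn (14.9 kb) have far longer exons than Lrpap1 (4.12 kb) or Amn (1.84 kb). In controls Lrp2 was highest at 242 ± 8.75 per kb (SD, n = 3). Lrpap1 followed at 166 ± 9.62 per kb and Dab2 (7.34 kb of exon) at 70.7 ± 1.23 per kb. Cubn was at 31.4 ± 2.30 and Amn at 17.8 ± 3.38 per kb. Every neighbouring pair in this order was apart in all 3 control libraries. Thus the cubilin transcript was several fold less abundant per length than that of its partner megalin.

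After restriction the first places changed. Lrpap1 stood at 149.7 ± 3.75 per kb, with 145 to 152 in the 3 libraries, and Lrp2 at 135 ± 1.10 per kb, with 135 to 137. These groups of libraries did not overlap, so the chaperone transcript was above that of the receptor it escorts, the reverse of the control order. Dab2 was at 64.9 ± 6.58 per kb, apart from its neighbours. Cubn at 18.48 ± 1.24 and Amn at 14.6 ± 5.63 per kb could no longer be placed in order, because the Amn libraries, from 10.7 to 21.0, enclosed those of Cubn. With the longest coding transcript as the length, Lrp2 went from 262 ± 9.45 to 146 ± 1.19 per kb and Lrpap1 from 229 ± 13.3 to 207 ± 5.17 per kb (SD, n = 3 each), and the first 2 places changed in the same way. Of the summed level per kb of the 5 genes, Lrp2 made up 45.9% ± 1.74 in controls and 35.3% ± 0.907 after restriction (SD, n = 3 each). The share of Lrpap1 went from 31.4% ± 1.72 to 39.1% ± 1.71. The changed order and shares restate the fold changes of the genes and are not separate evidence.

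**Figure D2:**
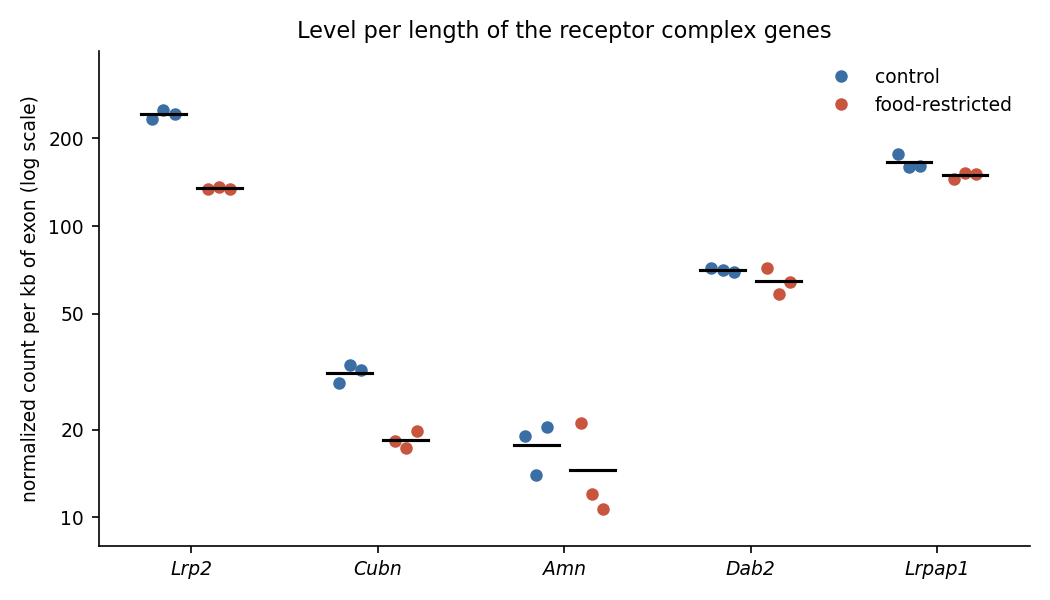
Normalized count per kb of exon for the 5 genes on a log axis, with a point for each library and a bar for the mean of 3. Control libraries have Lrp2 above Lrpap1 (242 against 166), food-restricted libraries have Lrpap1 above Lrp2 (149.7 against 135).

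Ratios of normalized count + 1 within each library were compared for all 10 pairs of the 5 genes with an exact two-sided permutation test. With 3 libraries against 3 the smallest p is 0.1, so no pair could pass 0.05. Cubn was 11.6% of Lrp2 in controls and 12.2% after restriction, with overlapping libraries. The log2 ratio of Cubn over Lrp2 was -3.17, -3.07 and -3.08 in the controls and -3.04, -3.13 and -2.92 after restriction. Its shift was 0.08, within the spread of the libraries (exact permutation p = 0.4, adjusted over the 10 pairs 0.571), and leaving out 1 library gave 0.023 (without food-restricted replicate 3) to 0.13 (without food-restricted replicate 2), with 0.044 without control replicate 1.

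The ratios of Dab2 and Lrpap1 to the receptors were higher in every food-restricted library than in any control. Dab2 was 12.9% of Lrp2 in controls and 21.1% after restriction, a shift of 0.71 in the log2 ratio. Lrpap1 was 16.9% of Lrp2 in controls and 27.3% after restriction, a shift of 0.69. Over Cubn the shifts were 0.63 for Dab2 and 0.62 for Lrpap1. In these 4 pairs the diets did not overlap, and each had the smallest p the design allows (exact permutation p = 0.1, adjusted 0.25). A gene that hardly changed must be higher against a receptor gene that fell. These 4 shifts therefore restate the fold changes and are not separate evidence. The shift of Lrpap1 over Dab2 was -0.02, within the spread of the libraries (exact permutation p = 1.0). The 4 ratios with Amn overlapped between diets, among them Amn over Lrp2 with a shift of 0.52 (exact permutation p = 0.3, adjusted 0.571) and Amn over Cubn with 0.44 (exact permutation p = 0.4). Without food-restricted replicate 1 these shifts were 0.23 and 0.15, and without control replicate 2 they were 0.33 and 0.24. Without food-restricted replicate 3 the shift of Amn over Cubn was 0.68.

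**Figure D3:**
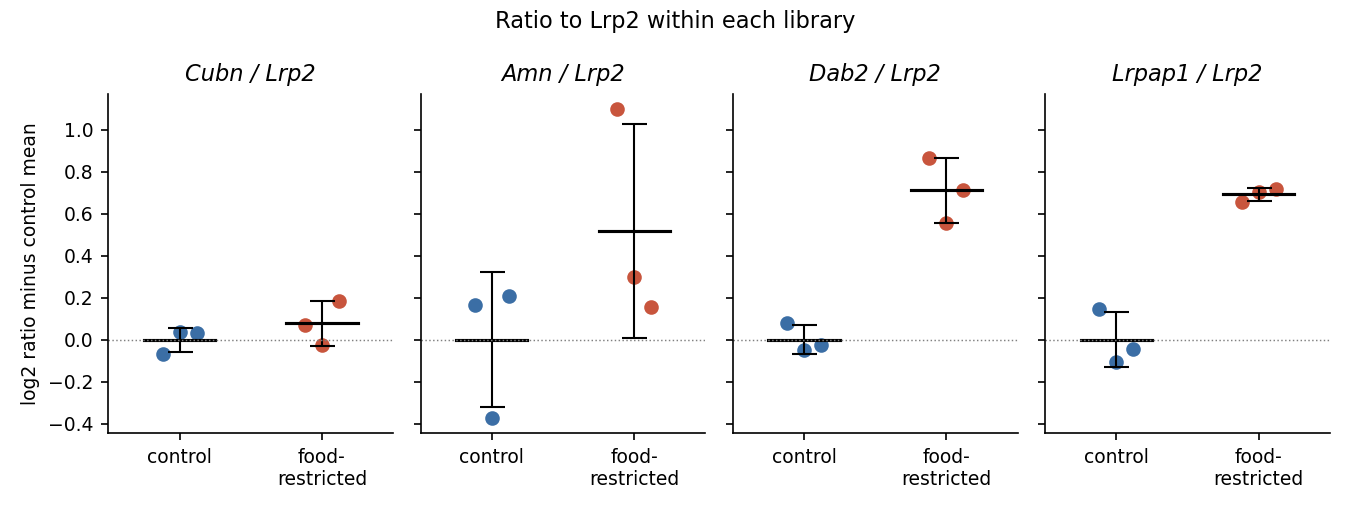
Log2 ratio of each gene to Lrp2 in each library, set to 0 at the control mean, with means and 1 SD (n = 3). Cubn over Lrp2 stays around 0 in both diets, whereas Dab2 and Lrpap1 over Lrp2 are higher in every food-restricted library, by 0.71 and 0.69 on average.

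The genes whose profiles over the 6 libraries were most like those of the receptors were ranked by the root mean square difference of mean-centred log2 values, among the other 10059 genes with a mean of at least 100. For Lrp2 the nearest was Slc7a8, which encodes an amino acid transporter, at a difference of 0.0453. Its normalized count went from 137 ± 8.51 to 77.7 ± 3.43 (SD, n = 3 each). Cubn was the third nearest to Lrp2 at 0.0793, after the histone gene Hist1h2bg at 0.0776, and C1galt1c1, a chaperone of a glycosylation enzyme, at 0.0887 and the brush border protease gene Mep1a at 0.0897 came next. For Cubn the nearest was 5830417I10Rik at 0.0331, followed by Hist1h2bg at 0.0681, Slc7a8 at 0.0757, Lrp2 at 0.0793 and the histone gene Hist1h3f at 0.0952. Likeness over 6 libraries of 2 diets is a description, since any gene with a fall of similar size is near.

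The receptors belong to the proximal tubule programme, and the 30 proximal tubule markers examined beside them were mostly lower too. Of these, 22 were called lower and 0 higher by limma (25 and 0 at an unadjusted p under 0.05, 20 and 0 by limma-voom). Over all genes tested limma called 2.5% lower and 2.24% higher. The markers had a median log2 fold change of -0.78. Examples are Ass1, an enzyme of arginine synthesis, from 336 ± 33.7 to 137 ± 19.3 (SD, n = 3 each, log2 fold change -1.29), and Kap, a kidney androgen-regulated gene, from 102 ± 16.3 to 18.1 ± 8.24 (-2.53). The organic anion transporter gene Slc22a6 fell by 1.18 and the phosphate transporter gene Slc34a1 by 0.68 on the log2 scale (limma, adjusted p = 3.32e-09 and 6.33e-07). The changes of Lrp2 and Cubn lay inside the range of the 30 markers, -2.53 to -0.15, with 12 markers lower than Lrp2 and 16 lower than Cubn. The summed markers ranged from 4776 to 4851 normalized counts in controls and from 2715 to 2855 after restriction, and none was at 0 in every library.

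Set against that sum, Lrp2 was 81.6% to 86.3% of the summed markers in controls and 78.7% to 82.8% after restriction, and Cubn was 9.02% to 10.2% and 9.17% to 10.9%. Both ranges overlap between diets. Amn was 0.530% to 0.781% of the sum in controls and 0.725% to 1.36% after restriction, also with overlap. Dab2 went from 10.6% to 11.1% up to 15.2% to 18.4%, and Lrpap1 from 13.6% to 15.3% up to 21.0% to 23.0%, with no overlap in either gene. Neither gene rose itself, with log2 fold changes of -0.13 and -0.15 and no call. The sum fell, so a gene that hardly changed must be higher against it, and a gene with a similar fall must overlap. These percentages therefore restate the fold changes and are not separate evidence. The part of these markers in the fall of Lrp2 and Cubn was not tested.

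Other measures moved with diet in the same libraries. For the limma calls in the marker lists, the shares over all genes tested were 2.5% lower and 2.24% higher. The 15 nephron progenitor markers, which the sorted cells should hold, summed to 41114 to 41863 normalized counts in controls and 39813 to 41824 after restriction, with 2 called lower (Meox1 and Itga8), 1 higher (Pax2) and a median log2 fold change of -0.06. Six2 itself, the marker behind the sort, was at 4160 ± 191 and 3989 ± 142 (SD, n = 3 each, limma adjusted p = 0.558). Per kb, Six2 was at 1963 ± 90.1 in controls, far above the 242 of Lrp2. The 14 macrophage markers summed to 289 to 314 in controls and 462 to 496 after restriction, with 0 called lower and 4 higher by limma (1 and 5 at an unadjusted p under 0.05, 0 and 3 by limma-voom). Mrc1, the mannose receptor gene, went from 41.4 ± 10.8 to 85.7 ± 18.9 (SD, n = 3 each), and the other called ones were Csf1r, Cd68 and Adgre1. Cd68 had the highest mean of the 14, at 175, and so weighs most in the sum. In 5 of the 14 all food-restricted libraries were above all controls, a count for which the share over all genes was not computed. In 2 all were below, against 10.2% of all genes tested. Of the uncalled markers, Fcgr1 and Cd163 had log2 fold changes of -1.79 and -1.26, at mean counts of only 1.79 and 6.54. Macrophages also express Dab2. Leaving out control replicate 1 or 2 or food-restricted replicate 1 or 2 left 2 macrophage markers called. Xist, the RNA of the inactive X chromosome, was higher after restriction (17653 ± 840 and 26601 ± 547, SD, n = 3 each), and the Y-linked gene Ddx3y was lower (749 ± 58.3 and 336 ± 22.01). The part of sex or of macrophages in the values of the complex was not tested.

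Lrp2 belongs to the LDL receptor family. Of 13 relatives, 1 was called lower and 4 higher, against 2.5% and 2.24% of all genes tested. Their median log2 fold change was 0.10. Lrp1, the large relative that clears proteases and lipoproteins and is also escorted by Lrpap1, had normalized counts of 3204, 3261 and 3104 in controls and 3822, 4368 and 4359 after restriction. It rose by 0.39 on the log2 scale (limma, adjusted p = 4.94e-09), with no overlap between diets. Sorl1, a sorting receptor, rose from 745 ± 17.8 to 932 ± 39.0 (SD, n = 3 each, log2 fold change 0.32, limma adjusted p = 0.00134).

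Weaker calls were made for 2 further relatives. Lrp4, an agrin and Wnt pathway receptor, rose from 2444 ± 8.69 to 2777 ± 168 (SD, n = 3 each, 0.18, limma adjusted p = 0.0149) and kept its call only without food-restricted replicate 1 among the 6 single omissions; the other 5 gave adjusted p-values in limma from 0.0525 to 0.247. The Wnt co-receptor gene Lrp5 rose from 928 ± 46.4 to 1107 ± 157 (SD, n = 3 each, 0.25, limma adjusted p = 0.0305) with overlapping groups, and it too was called only without food-restricted replicate 1, with 0.0731 to 0.372 for the others. Lrp6, another Wnt co-receptor gene, had a log2 fold change of -0.03 and the reelin receptor genes Vldlr and Lrp8 had 0.02 and -0.24 (limma, adjusted p = 0.801, 0.967 and 0.156).

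Of 26 genes of the clathrin coat and its cargo adaptors, the machinery that Dab2 joins, 0 were called lower and 1 higher by limma, with 2 in each direction at an unadjusted p under 0.05 and the same 0 and 1 by limma-voom. The limma counts stand beside 2.5% lower and 2.24% higher over all genes tested, and the median log2 fold change was 0.02. Myo6, the motor that Dab2 binds, had normalized counts of 1839, 1871 and 1827 in controls and 2125, 2168 and 1986 after restriction. Its rise of 0.18 (limma, adjusted p = 0.0287) was lost without any one of 5 of the 6 libraries, with adjusted p-values in limma of 0.0543 to 0.214; food-restricted replicate 3 is the exception. The clathrin heavy chain gene Cltc was at -0.04 and the adaptor subunit gene Ap2m1 at -0.14 (limma, adjusted p = 0.695 and 0.279). The endocytic adaptor gene Numb was at 0.01 (limma, adjusted p = 0.973).

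Among 26 genes of endosomal sorting and recycling, which carry the receptors onward, 1 was called lower and 1 higher, with a median log2 fold change of 0.01. Those counts stand beside 2.5% lower and 2.24% higher over all genes tested. Clcn5, the endosomal chloride transporter whose loss impairs protein uptake in Dent disease, fell from 1075 ± 66.9 to 910 ± 41.0 (SD, n = 3 each, -0.24, limma adjusted p = 0.0206). That call held without control replicate 1 and without food-restricted replicate 2 and was lost without any one of the other 4 libraries, with adjusted p-values in limma of 0.0534 to 0.193; it was also lost with limma-voom (0.106). Rab11fip1, an effector of the recycling GTPase Rab11, rose from 219.7 ± 35.6 to 304 ± 9.44 (SD, n = 3 each, 0.48, limma adjusted p = 0.00434). It was not called without control replicate 1 (limma, adjusted p = 0.0607), control replicate 2 (0.0637) or food-restricted replicate 3 (0.0565). Ocrl, the phosphatase gene of Lowe syndrome, was at 0.15 and Snx17, a sorting nexin that recycles LDL receptor relatives, at 0.02 (limma, adjusted p = 0.327 and 0.962).

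Of 23 genes for ligands of the receptors, 21 had normalized counts, while Lcn2 and Fabp1 were too low for a value. Of the 21, 2 were called lower and 2 higher, against 2.5% and 2.24% of all genes tested. The median log2 fold change was -0.15. Plau, the urokinase gene, had normalized counts of 94.1, 127 and 145 in controls and 45.8, 42.7 and 63.6 after restriction, a fall of 1.25 on the log2 scale (limma, adjusted p = 7.88e-06). The folate receptor gene Folr1, whose product is taken up by megalin, fell from 52.0 ± 7.25 to 26.9 ± 5.42 (SD, n = 3 each, -0.93, limma adjusted p = 0.0313), and the call was lost without any one control or without food-restricted replicate 3 (limma, adjusted p = 0.0595 to 0.211). Alb, the gene of albumin, rose from 4.09 ± 3.24 to 19.0 ± 5.23 (SD, n = 3 each, 2.16, limma adjusted p = 0.00817), at levels so low that the size of the fold depends on the pseudocount; it was not called without control replicate 2 (0.0768), food-restricted replicate 2 (0.114) or food-restricted replicate 3 (0.0826). Apoe, an apolipoprotein gene that macrophages express, rose from 189.8 ± 18.0 to 252 ± 27.3 (SD, n = 3 each, 0.41, limma adjusted p = 0.0342) and was called in only 1 of the 6 omissions, that of food-restricted replicate 2, with 0.0610 to 0.230 in the others. The vitamin B12 carrier gene Tcn2 was at -0.18 (limma, adjusted p = 0.395).

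Of 10 transcription factor genes of the proximal tubule, 1 was called lower and 1 higher, against 2.5% and 2.24% of all genes tested. Their median log2 fold change was 0.12. Hnf4a, a nuclear receptor needed for proximal tubule maturation in mice, had normalized counts of 143, 155 and 129 in controls and 106, 97.2 and 68.9 after restriction. It fell by 0.67 on the log2 scale (limma, adjusted p = 0.00712), and the call was lost without control replicate 1 (limma, adjusted p = 0.0615), control replicate 2 (0.0722) or food-restricted replicate 3 (0.166). Maf rose from 467 ± 5.82 to 588 ± 22.8 (SD, n = 3 each, 0.33, limma adjusted p = 0.00638).

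**Figure D4:**
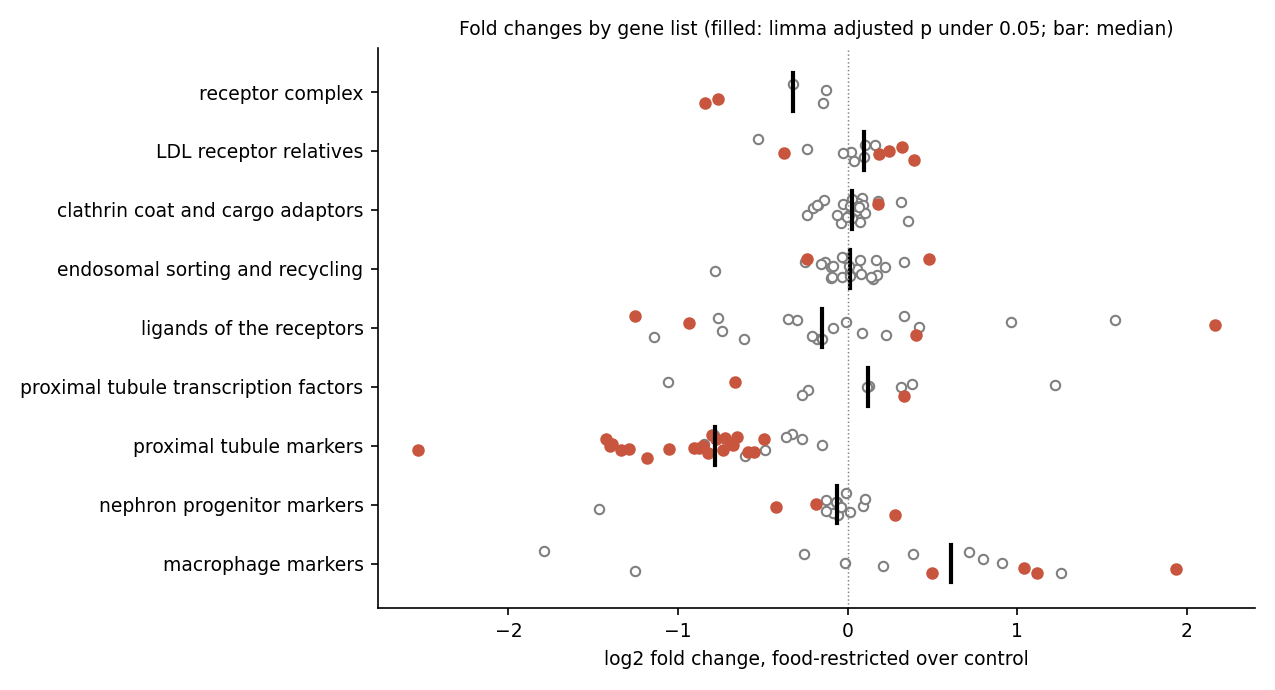
Log2 fold change, food-restricted over control, of every tested gene in the complex, 5 pathway lists and 3 marker lists; filled points were called by limma at an adjusted p under 0.05 and the bar is the list's median. The receptor genes at -0.84 and -0.76 fall among the proximal tubule markers (median -0.78), away from the medians of the LDL receptor relatives (0.10), the clathrin list (0.02) and the endosomal list (0.01).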

How the data were processed

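RNA was measured in 3 control and 3 food-restricted libraries. The submitters' processing notes name GRCm38 as the build, with DESeq2 (1.22.1), HTSeq (0.6.0), TopHat2 (2.1.1), cutadapt (1.18) and bcl2fastq (2.18.0.12). The authors deposited whole-number read counts, normalized counts for the 25157 genes with a summed count of at least 10, and their own DESeq2 log2 fold changes with standard errors and test statistics (a score per gene) and p-values. Totals per library ran from 6515127 to 16763479 counts. Missing values are marked with a sign, so the columns could not be declared as counts. The edgeR and DESeq2 fits, planned only for declared counts, were not run here. The 25157 genes do have whole-number counts in every library, and limma-voom used them. Replicates of a diet differed by more than counting noise, with a mean chi-square per gene of 2.99 to 11.2 where noise alone gives 1.

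The log2(normalized count + 1) was fitted with limma 3.58.1 in R 4.3.3, with diet as the only term and a mean-variance trend, two-sided, with Benjamini-Hochberg adjustment over all genes. The fit was also run on simulated data. Replicates there differed less, and more evenly, than these libraries do, so that run does not give the error rate here. Exact permutation tests used scipy 1.17.1. Exon lengths and overlapping genes came from GENCODE M21 on GRCm38. Poisson intervals cover counting error only. Alternatives were other pseudocounts, a filter on low values, 2 other scalings, limma-voom, leaving out each library, a replicate block and, added after seeing the data, removal of the length trend. The genes and all lists were chosen with earlier results of these data known. Named genes are the 5 of the complex, up to 5 called genes of a pathway list, up to 3 called genes and the gene with the highest mean count of a marker list, and the 5 profiles nearest to each receptor. Uncalled pathway genes and Six2, Xist, Ddx3y, Fcgr1, Cd163, Adgre1 and Col1a2 were named outside this rule, with their values known. Genes that overlap Cubn or Dab2 were named for that overlap. Some list genes that this rule names are not reported here, though the counts per list include them.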

Additional observations from a re-analysis of the deposited data

How the results depend on the processing

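In all 14 alternatives Lrp2 and Cubn were called lower and the other 3 genes of the complex were not called. The log2 fold change of Lrp2 ranged from -0.88 to -0.80 and that of Cubn from -0.82 to -0.71, Amn ranged from -0.61 to -0.14, Dab2 from -0.20 to -0.06 and Lrpap1 from -0.17 to -0.10. With the trend of fold change on exon length removed, an alternative added after seeing the data, Lrp2 was at -0.88 and Cubn at -0.80, 1078 genes were called against 1193, and Lrp4 (limma, adjusted p = 0.0833), Lrp5 (0.0812) and Myo6 (0.136) were not called. Over the 5 pathway lists 14 of 96 genes were called, where 2.5% of all genes tested were called lower and 2.24% higher. Among genes with a mean normalized count of at least 100, as many of the 96 have, the shares were 5.37% and 4.59%. Leaving out 1 library gave 4 to 11 called genes in these lists, though fewer samples enter those fits. Leaving out 1 library, the Lrpap1 over Amn ratio shift of 0.18 ranged from -0.018 (without food-restricted replicate 3) to 0.48 (without food-restricted replicate 1), and the Lrpap1 over Dab2 shift of -0.018 ranged from -0.10 to 0.077 (without food-restricted replicate 1), with 0.017 without control replicate 1; the cause was not tested. The edgeR and DESeq2 fits were not run. Whether the replicate numbers pair the libraries is not stated in the sources. Deviations of same-numbered libraries correlated at -0.11, 0.03 and -0.07 over 10060 genes, and those of differently numbered ones at up to 0.11. With 3 libraries per diet these values cannot decide whether libraries were paired. With a replicate block, Lrp2 stayed at -0.84 and Cubn at -0.76 (limma, adjusted p = 5.24e-18 and 2.98e-07), 980 genes were called, and Lrp5 (0.0517) and Myo6 (0.0598) were not called. Depth limits Amn, with 22 to 38 reads per library.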

Other observations

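Markers of other cells that a kidney sort could hold were also counted. For their limma calls, the shares over all genes tested were 2.5% lower and 2.24% higher. Of 12 podocyte markers, 1 was called lower and 0 higher by limma (2 and 2 at an unadjusted p under 0.05, 1 and 1 by limma-voom): Podxl, a surface sialoprotein, fell, with normalized counts of 53.7 ± 11.7 in controls and 26.6 ± 6.39 after restriction (SD, n = 3 each; -0.99 on the log2 scale, limma adjusted p = 0.0209), and 4 of the 6 single omissions ended that call (limma, adjusted p = 0.0565 to 0.184). Of 13 stroma markers, 1 was called lower (Aldh1a2) and 4 higher (Col3a1, Col1a1, Col1a2 and Pdgfra); Col3a1, a fibrillar collagen gene, rose from 294.8 ± 20.1 to 463 ± 58.2 (SD, n = 3 each, 0.64, limma adjusted p = 3.22e-06), and the 5 stroma calls became 1 when food-restricted replicate 3 was left out, and 3 when control replicate 1 or food-restricted replicate 2 was. The Aldh1a2 call was lost in 9 of the 14 alternatives, both other scalings among them (limma, adjusted p = 0.0549 to 0.167). Of 12 ureteric epithelium markers, 1 was called lower and 0 higher by limma (1 and 1 at an unadjusted p under 0.05, 1 and 0 by limma-voom): Hoxb7, a homeobox gene of the collecting system, fell from 221 ± 14.1 to 146.8 ± 6.25 (SD, n = 3 each, -0.59, limma adjusted p = 0.00151). The median log2 fold change of that list was 0.24, in the other direction, and no other marker in it was called. None of 12 endothelial markers was called by limma or limma-voom (1 lower and 0 higher at an unadjusted p under 0.05), and none of 11 loop and distal tubule markers was (0 and 0).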
